A study of Mus musculus with 24 samples.

Results

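Stage IV holds the most mature of 4 stages into which eosinophils of the mouse bone marrow were sorted, and the comparison described here sets 3 stage IV libraries from mice given interleukin 33 (IL-33) against 3 stage IV libraries from mice in steady state. The members were taken from the sample labels alone, by stage and condition, and they are 6 of the 24 libraries measured. The other 18 libraries belong to stages I to III, with 3 libraries for each stage and condition. All mice were C57BL/6 (written CB57BL/6 in the labels) with no allele or transgene named, and their age is not stated. Treated mice received 400 ng of recombinant IL-33 into the peritoneum on each of 7 days, and the labels name no injected control, so the injections and IL-33 itself cannot be told apart. Each library came from the pooled marrow of 3 mice. Magnetic depletion took out cells with CD45R, NK1.1, CD90.2 or Ly6G, and flow sorting by CD200R3, Siglec-F, CD117, CD29, Pir-A/B, F4/80 and CD55 gave the stages. The samples are therefore groups of sorted cells, and in such bulk samples fewer cells of a type and less RNA per cell cannot be told apart.

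Eosinophils are granulocytes that fill their granules with basic proteins, among them major basic protein, eosinophil peroxidase and ribonucleases of the Ear family, while they mature in the marrow. The genes for these proteins are transcribed early, and mature eosinophils carry the stored proteins with little of the message. IL-33 is an alarmin of the IL-1 family, and it acts through the receptor ST2, the product of Il1rl1. It drives eosinophilia both by signalling to the marrow and by inducing IL-5, the growth and survival factor of the lineage.

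The 6 libraries held between 8378244 and 13491834 gene counts. A count of 1 or more was found for 11666 to 13227 genes. Levels are given below as CPM (the counts of a gene relative to the library's total), scaled by TMM factors, and an adjusted p is that of edgeR's quasi-likelihood test after Benjamini and Hochberg over all 12743 genes tested. Of the eosinophil markers, Ccr3, the eotaxin receptor, lay between 1400.2 and 2243 CPM, Alox15 between 1298 and 3451 CPM, and Siglecf between 302.3 and 805.2 CPM. The granule markers were low in steady state, with Epx at 18.6 to 26.5 CPM, while Ngp, a neutrophil granule gene, was at 1315 CPM or more there.

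Some measures of the libraries moved with the condition. The percentage of counted reads that fell in no gene was 25.8% ± 5.53 (SD, n = 3) without and 14.8% ± 2.66 (SD, n = 3) with IL-33, and an exact permutation test, two-sided, gave p = 0.1, the smallest value that 20 relabellings allow. Adding this share to the model as a covariate left 189 genes past the threshold in place of 1550. Since the share separates the conditions, that fit is confounded with them, and the part of the share in the results below was not tested. Of the 153 genes named here by rule that passed the test, 45 also passed with the covariate. The steady state libraries numbered 3 stood apart at every stage on the stress gene Atf3, at 164.6, 662.9, 503.2 and 1063 CPM in stages I to IV, against 52 CPM or less in the steady state libraries numbered 1 and 2. They also had the highest level of the immediate early gene Jun at each stage. The labels do not tell what set them apart, and results are given without these 4 libraries where that matters.

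In stage IV 1550 of the 12743 genes tested passed the threshold of 0.05 (12.2%). Of these 953 were higher under IL-33 (7.48% of genes tested) and 597 were lower (4.68%). The change was above 2-fold for 773 of the genes that rose and for 507 of those that fell, and above 4-fold for 370 and 212. The 3 IL-33 libraries all lay above the 3 steady state libraries for 2107 genes (16.5%) and all below them for 1894 (14.9%), whether or not the gene passed the test. Without scaling factors, on library totals alone, the calls split evenly into 748 higher and 749 lower, and the median log2 fold change over all genes moved from -0.04 to -0.15. Leaving out IL-33 library 2 lowered the number of calls to 802, with 567 higher and 235 lower.

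The granule protein genes separated the conditions throughout. All 7 of the list rose in stage IV under IL-33, their median log2 fold change was 4.62 against -0.04 over all genes, and in none did the 2 groups of libraries overlap. Their joint share of gene counts was 0.0846% ± 0.0378 (SD, n = 3) without and 1.8% ± 0.201 (SD, n = 3) with IL-33, a difference of 1.72 percentage points with p = 0.1 in the exact two-sided permutation test, again the smallest it allows. The summed level of the 7 genes ran from 399.3 to 1247 CPM in the steady state libraries and from 18120.3 to 24184 CPM in the IL-33 libraries.

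Epx (chr11:87864000-87875536 on GRCm38), which encodes eosinophil peroxidase, had 20.2, 18.6 and 26.5 CPM in the 3 steady state libraries and 5997, 6901 and 4504 CPM in the 3 IL-33 libraries. The fitted change was 267-fold, a log2 fold change of 8.06 (SE 0.35, adjusted p = 3.58e-13). Prg2 (chr2:84980461-84983632), the gene of major basic protein, was already at 492.4, 233.7 and 686.8 CPM in steady state and reached 10102, 11902 and 9495 CPM. Its log2 fold change was 4.48 (SE 0.31, adjusted p = 1.87e-09). Prg3 (chr2:84988215-84993886), its close relative next to it on the chromosome, went from 46.7, 26.4 and 89.6 CPM to 1616, 2295 and 1721 CPM. The order Prg2, Epx, Prg3 under IL-33 therefore differed from the order Prg2, Prg3, Epx in steady state, as counted without regard to gene length.

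The ribonuclease genes of the Ear family moved the same way over a range of levels. Ear1 was at 533.8, 110.6 and 401.8 CPM in steady state libraries and 1981, 2626 and 2004 CPM in IL-33 libraries, with a log2 fold change of 2.66 (SE 0.37, adjusted p = 3.06e-05). Ear6 rose 29.3-fold, from a mean of 9.31 to 269.8 CPM. Ear2 rose by 2.66 on the log2 scale, while Ear10 rose by 4.62 from a mean of only 0.19 CPM. Steady state library 2 was the lowest of its group for Epx, Prg2, Prg3, and all 4 Ear genes. Copies of this family are nearly identical, so the counts of single Ear genes are uncertain. With the covariate 4 of the 7 granule genes remained past the threshold, namely Epx, Prg2, Prg3 and Ear6. They were also called under every other setting tried, including the fit without each library.

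**Figure D1:**
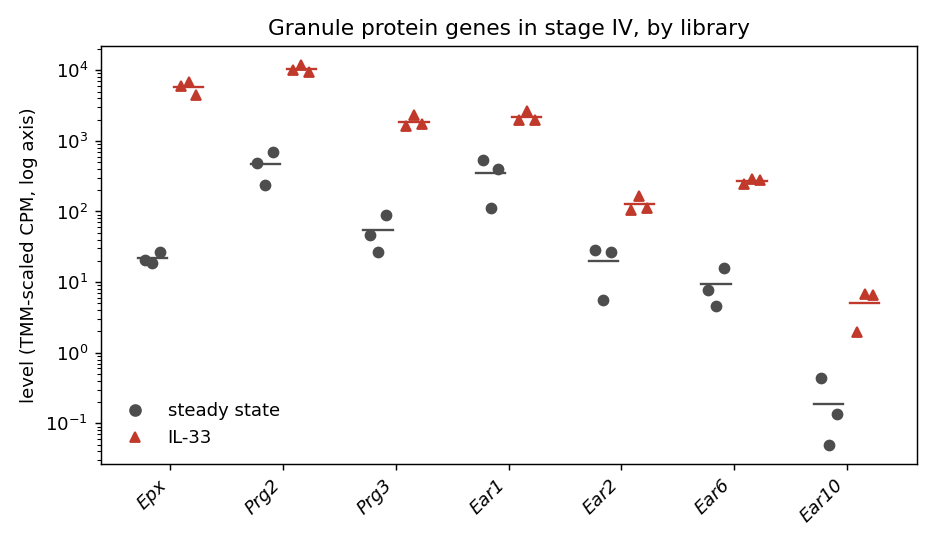
Levels of the 7 granule protein genes in stage IV on a log axis of TMM-scaled CPM, with circles for the 3 steady state libraries, triangles for the 3 IL-33 libraries and a bar at each mean; a library with no count is drawn at 0.05 CPM. Every triangle lies above every circle of its gene, with Epx at 4504 CPM or more under IL-33 and at 26.5 CPM or less in steady state.

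Beside the earlier stages, the distance between the conditions in stage IV was the larger one. In steady state the 7 genes took 3.39% to 4.51% of the gene counts in stage I, 1.21% to 1.93% in stage III and 0.041% to 0.109% in stage IV. Under IL-33 they took 3.27% to 4.2% in stage I, 2.95% to 3.39% in stage III and 1.61% to 2.01% in stage IV. The mean Epx level under IL-33 was 13779 ± 1998 CPM (SD, n = 3) at stage III and 5801 ± 1210.2 CPM at stage IV, against 2702 ± 1075 CPM and 21.8 ± 4.17 CPM in steady state. All 7 genes passed the test that the effect in stage IV exceeds its mean over stages I to III, with a difference of 7.06 (SE 0.35, adjusted p = 7.31e-12) on the log2 scale for Epx and of 4.64 (SE 0.34, adjusted p = 1.27e-08) for Prg2. In stage III itself Epx and Prg3 rose, by 2.35 and 1 on the log2 scale, while the fitted log2 fold change of Epx was 0.23 in stage I and 0.42 in stage II.

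**Figure D2:**
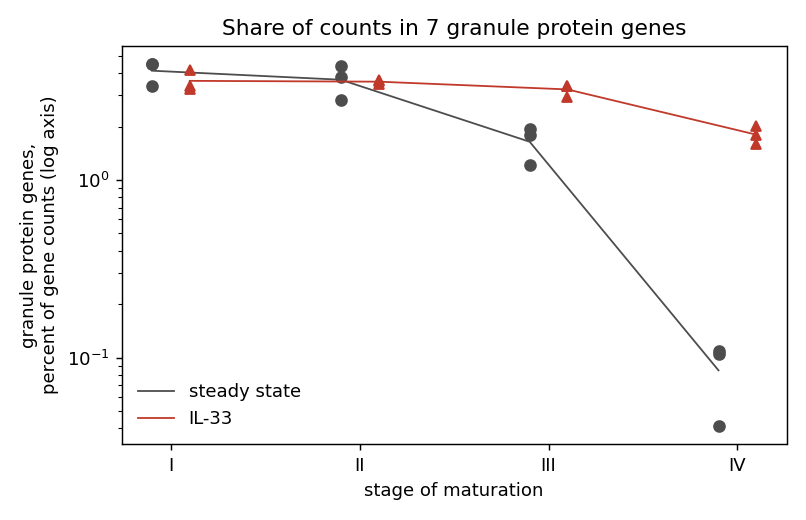
Share of gene counts in the 7 granule protein genes, in percent on a log axis, by stage of maturation, with circles for steady state libraries, triangles for IL-33 libraries and lines through the group means. The conditions overlap in stages I and II and lie far apart in stage IV, at 0.041% to 0.109% against 1.61% to 2.01%.

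Since these genes moved together, the windows around their annotated starts (250 bases before to 50 after, from RefSeq, build GRCm38.p6) are shown for 4 of the 6 that had an entry. Prg2 had none. They are Epx on the minus strand of chr11:87875487-87875786, Prg3 on the plus strand of chr2:84987965-84988264, Ear1 on the minus strand of chr14:43819590-43819889 and Ear6 on the plus strand of chr14:51853518-51853817, each written 5′ to 3′ with matches to GATAA, the core of the motif of GATA factors, on either strand in capitals.
Epx: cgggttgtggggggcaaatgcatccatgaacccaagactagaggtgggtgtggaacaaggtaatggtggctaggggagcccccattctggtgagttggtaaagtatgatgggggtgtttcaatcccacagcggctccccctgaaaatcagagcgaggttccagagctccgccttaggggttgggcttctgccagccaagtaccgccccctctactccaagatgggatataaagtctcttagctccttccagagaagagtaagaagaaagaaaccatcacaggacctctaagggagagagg
Prg3: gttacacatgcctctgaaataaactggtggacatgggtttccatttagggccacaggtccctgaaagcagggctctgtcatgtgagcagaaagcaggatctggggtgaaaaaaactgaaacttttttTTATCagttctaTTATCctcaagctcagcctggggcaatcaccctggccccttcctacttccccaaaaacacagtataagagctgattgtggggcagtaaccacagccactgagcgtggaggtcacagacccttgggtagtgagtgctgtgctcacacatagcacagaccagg
Ear1: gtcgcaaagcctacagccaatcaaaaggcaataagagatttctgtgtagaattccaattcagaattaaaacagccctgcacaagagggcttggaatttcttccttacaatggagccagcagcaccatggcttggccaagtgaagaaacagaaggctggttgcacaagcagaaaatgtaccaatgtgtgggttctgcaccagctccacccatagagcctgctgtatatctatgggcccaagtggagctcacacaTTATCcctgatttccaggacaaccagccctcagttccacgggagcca
Ear6: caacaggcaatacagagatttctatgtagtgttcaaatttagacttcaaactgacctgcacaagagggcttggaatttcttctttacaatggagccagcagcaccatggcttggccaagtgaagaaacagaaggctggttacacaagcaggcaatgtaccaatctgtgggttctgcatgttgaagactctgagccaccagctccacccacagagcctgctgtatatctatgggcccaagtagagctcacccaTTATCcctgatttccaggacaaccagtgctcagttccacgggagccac

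The Prg3 window held 2 matches to GATAA and the Epx window 0. Each of the 4 Ear windows (Ear1, Ear2, Ear6 and Ear10) held 1 match, within the bases after the annotated start, and these windows shared an unbroken run of 57 bases and were identical at 58.7% to 89.3% of their 300 bases without gaps. They are copies of one another, so their match counts once. GATAA was found in 17.2% of the 12706 windows of tested genes, in 20.4% of 1007 windows of genes that rose and in 18.3% of 600 windows of genes that fell. The C/EBP pattern TTNCNNAA was found in 32.5%, 36.1% and 32.7% of them, the STAT pattern TTCNNNGAA in 7.04%, 7.35% and 7.5%, and the E-box CANNTG in 64.6%, 66.4% and 62%, all counted on both strands. These shares differ little, and a match of letters is a description, not a bound site.

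Genes best known from basophils and mast cells, the other granulocytes with a type 2 programme, were the second group to separate. Of 13 tested members 9 rose (69.2% against 7.48% of all genes) and 1 fell (7.69% against 4.68%), with a median log2 fold change of 3.75. With the unassigned share as covariate 8 of the 9 remained past the threshold. The separation was not confined to stage IV: 9 rose and 2 fell in stage III, 4 and 2 in stage II, and 4 and 1 in stage I. Over all 12743 genes tested 2357 rose and 1899 fell in stage III, 517 and 506 in stage II, and 345 and 173 in stage I. Gata2, a transcription factor of basophils, mast cells and early progenitors, had 9.98, 6.84 and 9.6 CPM in steady state and 666.1, 652.4 and 417.2 CPM under IL-33, a log2 fold change of 6.04 (SE 0.42, adjusted p = 1.87e-09). Cyp11a1, the mitochondrial enzyme that starts steroid synthesis from cholesterol, went from 1.48, 0.83 and 1.92 CPM to 1251, 1198 and 767.6 CPM. That is 773-fold, with a log2 fold change of 9.6 (SE 0.65, adjusted p = 1.87e-09). In both genes IL-33 library 3 was the lowest of its group and still far above every steady state library. Under IL-33 in stage III Gata2 was at 644 to 792.3 CPM and Cyp11a1 at 485.2 to 574.5 CPM, against 30.5 and 2.79 CPM or less in steady state there.

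Cd200r3, an activating receptor that was itself one of the sort markers, was at 20.6, 14 and 20.4 CPM in steady state libraries and 606, 845.8 and 622.8 CPM in IL-33 libraries (37.8-fold, adjusted p = 1.79e-06). Hdc, which makes histamine from histidine, rose from a mean of 110.9 ± 19 CPM to 819.6 ± 189 CPM (SD, n = 3 each). Itga2b, an integrin subunit of platelets, mast cells and basophils, rose from 35.5 ± 2.51 to 478.7 ± 134 CPM. Fcer1a and Ms4a2, which encode the alpha and beta chains of the high affinity IgE receptor, rose by 3.47 and 5.22 on the log2 scale, and Cpa3, the mast cell carboxypeptidase, by 3.99.

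The proteases of mature basophils were not among the rises. Prss34, a basophil protease, had 210.9, 0 and 336.4 CPM in the steady state libraries and 0.0966, 3.04 and 14.7 CPM in those of IL-33, and was lower in the test (adjusted p = 0.0142) although the groups overlapped. Mcpt8, the other basophil protease, was at 133.9, 0.18 and 255.9 CPM against 28.4, 53.2 and 36.5 CPM and did not pass (adjusted p = 0.192). Cma1, a mast cell chymase, rose to between 5.09 and 8.79 CPM from 0.55 CPM or less, while Tpsb2, Mcpt4 and Mrgprb2, genes of connective tissue mast cells, had no counts in any of the 6 libraries. Over the whole list of 16 genes the summed level was 623.7 to 1374 CPM in steady state and 3903 to 5771 CPM under IL-33, and the part of basophils or mast cells in the change was not tested. The 2 basophil proteases were at or below 53.2 CPM in all 3 IL-33 libraries, where Gata2 was at or above 417.2 CPM. In steady state these proteases ran from 0 to 336.4 CPM, and which cells held any of these messages was not tested.

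**Figure D3:**
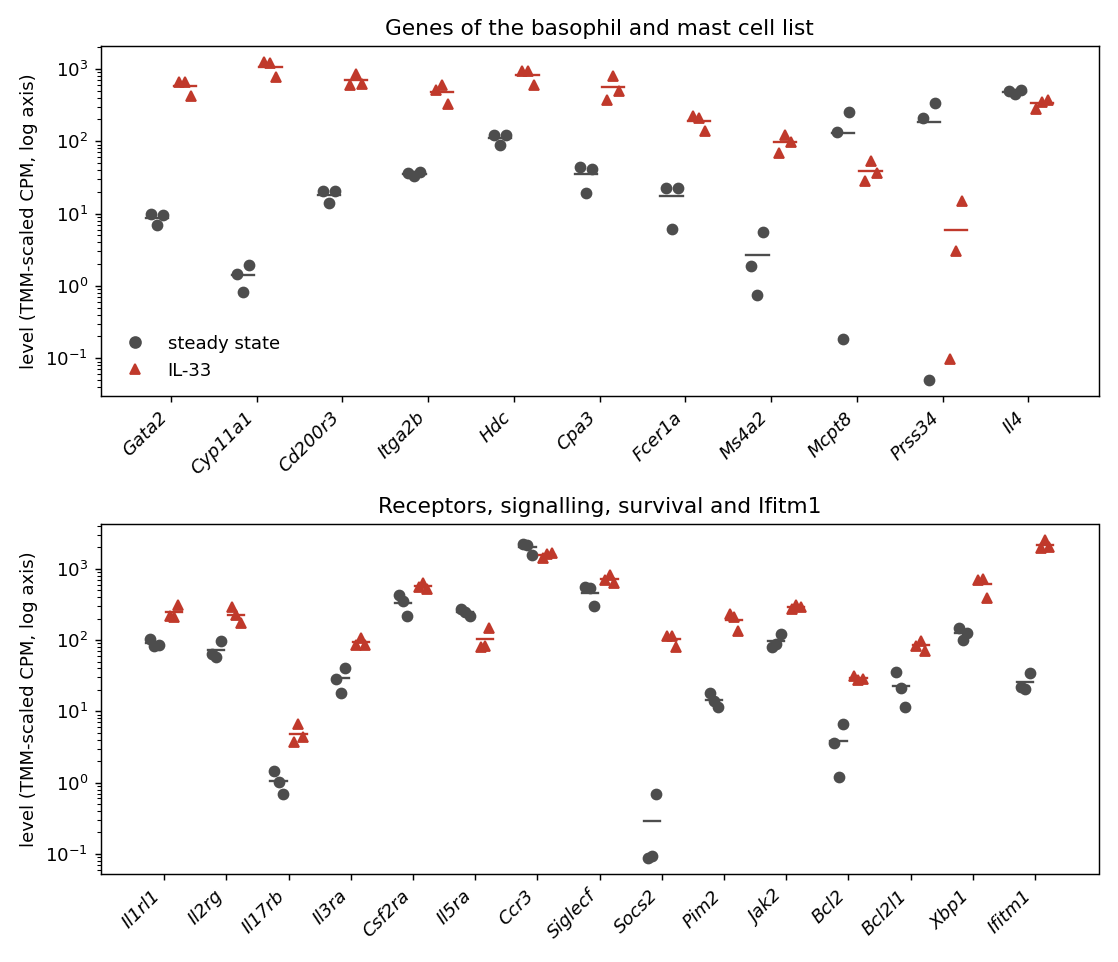
Levels by library in stage IV on a log axis of TMM-scaled CPM, with circles for steady state, triangles for IL-33, bars at the means and libraries with no count drawn at 0.05 CPM. The upper panel shows genes of the basophil and mast cell list, where Gata2 to Ms4a2 separate upward and Mcpt8 and Prss34 do not, and the lower panel shows receptors, signalling and survival genes.

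Among receptors, 4 of 9 tested genes for the receptors of IL-33, IL-25, TSLP and IL-4 rose (44.4% against 7.48% of all genes) and 0 fell. Il1rl1, the IL-33 receptor ST2, was at 102.2, 83.5 and 85.7 CPM in steady state libraries and 220.1, 210.3 and 311.3 CPM in IL-33 libraries, a log2 fold change of 1.45 (SE 0.32, adjusted p = 0.00407). Il2rg, the common gamma chain, rose by 1.64 and Sigirr, a brake on signalling by the IL-1 receptor family, by 1.42. Il17rb, the IL-25 receptor, rose by 2.16, but only from 1.06 ± 0.397 to 4.88 ± 1.54 CPM (SD, n = 3 each), and this call was lost in the fit of the stage IV libraries alone. All 4 calls ended with the covariate.

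Of 9 tested genes for the receptors of IL-5, GM-CSF, M-CSF and G-CSF 2 rose (22.2% against 7.48% of all genes) and 1 fell (11.1% against 4.68%). Il5ra, the alpha chain that gives eosinophils their response to IL-5, was at 273.4, 245.5 and 216.3 CPM in steady state libraries and 79.9, 82.6 and 146 CPM in IL-33 libraries, a log2 fold change of -1.25 (SE 0.32, adjusted p = 0.0113). The groups did not overlap, although the call was lost without IL-33 library 1 or 2. Il3ra, the matching alpha chain for IL-3, rose by 1.67 (adjusted p = 0.00837), a call lost without steady state library 2, and Csf2ra, the alpha chain for GM-CSF, by 0.77 (adjusted p = 0.0233), a call lost without steady state library 2 or 3, without IL-33 library 1 or 2, and without the 4 steady state libraries numbered 3, where the value was 0.495. The shared beta chain Csf2rb was at 242.2 to 431 CPM against 497.5 to 638.8 CPM and did not pass (adjusted p = 0.0681). Ccr3 was at 1572 to 2243 CPM in steady state against 1400.2 to 1646 CPM under IL-33 (adjusted p = 0.72), and Siglecf at 302.3 to 558.5 against 630.7 to 805.2 CPM (adjusted p = 0.278).

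Of 20 tested genes of the STAT5 pathway, through which IL-5 and IL-3 signal, 5 rose (25% against 7.48% of all genes) and 1 fell (5% against 4.68%). The list median was 0.0064 on the log2 scale, with 10 values above 0 and 10 below. Socs2, a feedback inhibitor induced by STAT5, had 0.0868, 0.0924 and 0.69 CPM in steady state and 113.2, 115.1 and 81 CPM under IL-33, from 7 counts against 3351 in all, with a log2 fold change of 8.64 (SE 1.09, adjusted p = 9.23e-06). Cish, another such inhibitor, was at 58.7, 30 and 55.4 CPM against 285.3, 311.3 and 211 CPM and rose by 2.49 (adjusted p = 0.0288). That call was lost without any 1 of the 3 steady state libraries and without IL-33 library 1 or 2. Pim2, a survival kinase, rose 13.3-fold from a mean of 14.5 to 192.9 CPM, and Jak2, the kinase bound to the beta chain, by 1.6 on the log2 scale. Pim3 fell by 2.13, while Pim1 did not pass (adjusted p = 0.735). Of 16 tested Bcl2 family genes 3 rose (18.8% against 7.48% of all genes) and 0 fell. Each of the 3 is a survival gene: Bcl2 rose by 2.96 (from 3.81 ± 2.69 to 29.2 ± 1.68 CPM), Bcl2l1 by 1.89 and Bcl2a1a by 4.11. Bcl2a1a has near-identical copies and is uncertain.

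Of 34 tested lineage transcription factors 1 fell (2.94% against 4.68% of all genes) and 6 rose (17.6% against 7.48%). Besides Gata2 they were Xbp1, a factor that eosinophils need to survive their granule production, which rose 4.83-fold from 148.1, 101.2 and 126.6 CPM to 703.1, 722 and 390 CPM (adjusted p = 7.58e-07), and Runx1, Ets1, Myb and Cebpe. Runx1 rose by 1.36, Ets1 by 1.64 and Myb by 1.24. Cebpe, a factor of terminal granulocyte maturation, rose by 0.98 (adjusted p = 0.0276), a call lost without steady state library 2 or 3, without IL-33 library 2 or 3 and on library totals. Gata1, the master factor of the lineage, was at 95 to 337 CPM in steady state against 236.1 to 332.6 CPM under IL-33 and did not pass (adjusted p = 0.456). Id2 was at 1121 to 1565 CPM against 658.1 to 962.2 CPM, also without passing (adjusted p = 0.0594).

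Among genes that reached 20 CPM in a group, the 15 largest rises included Epx, Cyp11a1 and Socs2, given above, and 12 genes with 6 counts or fewer in steady state stage IV. Plxdc2, Bex1, Cdh17, Trim38 and Fam160a1 had 0 counts in all 3 steady state libraries and between 14.2 and 36.6 CPM in the IL-33 libraries. Set against a floor of 3 counts over the group they were at least 333-fold, 272-fold, 224-fold, 205-fold and 202-fold higher. Their rise was not confined to stage IV. In stage III these genes were at 4.88 CPM or less in steady state libraries and between 5.43 and 40.5 CPM in IL-33 libraries. Nov, a secreted matricellular protein, had 1 count in steady state and 2168 under IL-33, a ratio of 1974 with an exact 95% counting interval from 354 to 78019. Hc, the complement component C5, had 1 count against 1287, and Cdh1, which encodes E-cadherin, had 4 counts against 1889 with 64, 59.4 and 51 CPM in the IL-33 libraries. Kdelr3, a receptor that returns proteins to the endoplasmic reticulum, had 6 counts against 1502, and its log2 fold change of 7.76 moved to 12.01 without steady state library 2, which held all 6. Acsbg1, Slc6a9 and Glt28d2 were the others, with 1 or 2 counts in steady state and means between 22.6 and 35.8 CPM under IL-33.

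Among genes that reached 20 CPM in a group, the largest falls began with Adamdec1, a secreted metalloprotease-like protein, at 148.1, 216.5 and 83.7 CPM in steady state libraries and 0.0966, 0.8 and 5.37 CPM in IL-33 libraries. Its call was lost with DESeq2 and without steady state library 2 or IL-33 library 1 or 2 (adjusted p = 0.0242 in the fit of all libraries). Thbs1, the matricellular protein thrombospondin 1, was at 344.4, 804.8 and 361.8 CPM against 10.1, 7.68 and 17.7 CPM, which is 42.5-fold lower (adjusted p = 0.00196). Apoe, a lipid carrier, fell 16.2-fold from 165.9, 87.2 and 72.3 CPM to 8.89, 4.74 and 6.46 CPM (log2 fold change -4.02, SE 0.35, adjusted p = 5.99e-08). Il15, a cytokine for lymphocytes, fell by 4.01 on the log2 scale and Tgm2, the tissue transglutaminase, by 3.95, the latter lost without IL-33 library 2 or 3. Trf, the iron carrier transferrin, fell by 3.41 and Car2, a carbonic anhydrase, by 3.4. The others were H2-Q5, Dusp2, Pid1, St3gal5, Sgip1, Erdr1, Tut4 and D1Ertd622e, with log2 fold changes between -4.05 and -3.43. Without IL-33 library 2 the calls of Pid1, Sgip1 and St3gal5 were lost. Dusp2 rested on steady state library 3, which had 162.2 CPM against 9.38 and 9.33 in the other two, and its log2 fold change was -1.36 without it.

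Of 28 tested genes of S phase 9 fell under IL-33 in stage IV (32.1%, median log2 fold change -0.66), and of 26 genes of ribosome biogenesis 8 fell (30.8%, median -0.79), against 4.68% of all genes. The other 19 and 18 did not pass. Prim1, the catalytic DNA primase subunit, was at 20.7, 15.1 and 15.5 CPM in steady state libraries and 5.02, 6.61 and 5.46 CPM in IL-33 libraries (log2 fold change -1.58, SE 0.29, adjusted p = 6.06e-04). Mcm3, a helicase subunit loaded at replication origins, was at 43.1, 38.3 and 29.8 CPM against 16.8, 18.5 and 10.5 CPM. Both stayed past the threshold under every setting tried. Nolc1, a nucleolar phosphoprotein, fell by 2.51 and Mybbp1a, which acts in ribosomal RNA synthesis, by 1.62.

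The counts of these lists depended on single libraries. Without steady state library 3 the S phase genes that fell numbered 3 and those of ribosome biogenesis 4, and without IL-33 library 2 they numbered 2 and 2. With the stage IV libraries alone they were 2 and 2, and with the covariate 2 and 1. Genes of mitosis did not follow in stage IV: of 29 tested 1 rose and 1 fell (3.45% each way, against 7.48% and 4.68% of all genes). Kif23, which acts in the last step of cell division, rose by 2.12 (from 36.1, 23.3 and 56.5 to 153.9, 162.8 and 186.9 CPM), and Mki67, the Ki-67 antigen, fell by 0.95. The Mki67 call was lost without steady state library 3 and without IL-33 library 2 or 3. Top2a was at 24.1 to 52.2 CPM against 32 to 70.3 CPM and did not pass (adjusted p = 0.442).

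The S phase and ribosome biogenesis genes went the other way in stage III. Its libraries are separate from those of stage IV but may come from the same mice, as the labels do not say. In stage III 27 of the 28 S phase genes and 22 of the 26 ribosome biogenesis genes rose under IL-33, with medians of 2.71 and 1.68. All 29 genes of the mitosis list rose there too, with a median of 3.18. Over all genes, 2357 of the 12743 tested rose in stage III. Mcm3 was at 49.3 ± 6.95 CPM in steady state and 344.4 ± 30 CPM under IL-33 in stage III, and at 37 ± 6.77 and 15.3 ± 4.19 CPM in stage IV (SD, n = 3 each). The effect in stage IV lay below its mean over stages I to III for 21 of the S phase genes and 13 of the ribosome biogenesis genes. The same held for 11 of the 29 mitosis genes and for 5.74% of all genes tested. For Mcm3 that difference was -2.34 (SE 0.27, adjusted p = 8.28e-06) on the log2 scale.

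Genes of sterol synthesis, the pathway that turns acetyl-CoA into cholesterol under the control of SREBP2, rose in 11 of 23 tested cases (median log2 fold change 1.24). That is 47.8%, against 7.48% of all genes. Srebf2, the gene of SREBP2 itself, rose by 2.07, from 55.9, 44 and 33.7 to 216.6, 203 and 141.4 CPM. Fdps and Lss, enzymes before and after squalene, rose by 2.18 and 2.86. With the covariate 1 of the 11 calls remained. Without the 4 steady state libraries numbered 3 the list held 15 calls, and with the stage IV libraries alone 7.

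Lysosome and autophagy genes rose in 11 of 30 tested cases (36.7% against 7.48% of all genes, median 0.62). Lamp2, a lysosomal membrane protein, was at 194, 141.5 and 164 CPM in steady state libraries and 410.7, 487.2 and 420.1 CPM in IL-33 libraries. Ctsh, a cathepsin, rose from a mean of 952.3 to 2169 CPM, and Glb1, the lysosomal beta-galactosidase, rose by 1.68 on the log2 scale. The count fell to 5 without steady state library 2, to 6 without IL-33 library 2, to 7 without IL-33 library 1, to 6 on library totals, and every call was lost with the covariate.

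Other metabolic and secretory lists moved less. Of 21 glycolysis genes 5 rose (23.8% against 7.48% of all genes), namely Gpi1, Pfkp, Aldoc, Tpi1 and Pgam1. Aldoc was at 0.35, 1.2 and 0 CPM in steady state and 85.7, 75.8 and 58.9 CPM under IL-33. The count of glycolysis genes that rose was 3 without steady state library 2 or IL-33 library 2 and 9 without steady state library 1. Of 30 genes of protein folding in the endoplasmic reticulum 6 rose (20%) and 2 fell (6.67%, against 4.68% of all genes). P4hb was at 173.9 to 370.7 CPM against 662.4 to 1269 CPM, and Hsp90b1 was higher by 0.92. Of the nuclear subunits of oxidative phosphorylation 0 of 30 passed with edgeR or DESeq2, 1 had an unadjusted p under the threshold, and limma-voom called 2. Of 12 tested genes of the heme synthesis list 2 rose (16.7% against 7.48% of all genes) and 2 fell (16.7% against 4.68%). The list median was 0.15 on the log2 scale. Alas1, which starts heme synthesis, rose by 1.95 (from 240.9, 222.1 and 150.3 to 761.2, 871.2 and 735.1 CPM, adjusted p = 3.59e-06) and Fech, which ends it, by 1.31. The transferrin receptor Tfrc fell by 3.29 and Alad, another member of the list, by 1.15 (adjusted p = 0.0421).

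**Figure D4:**
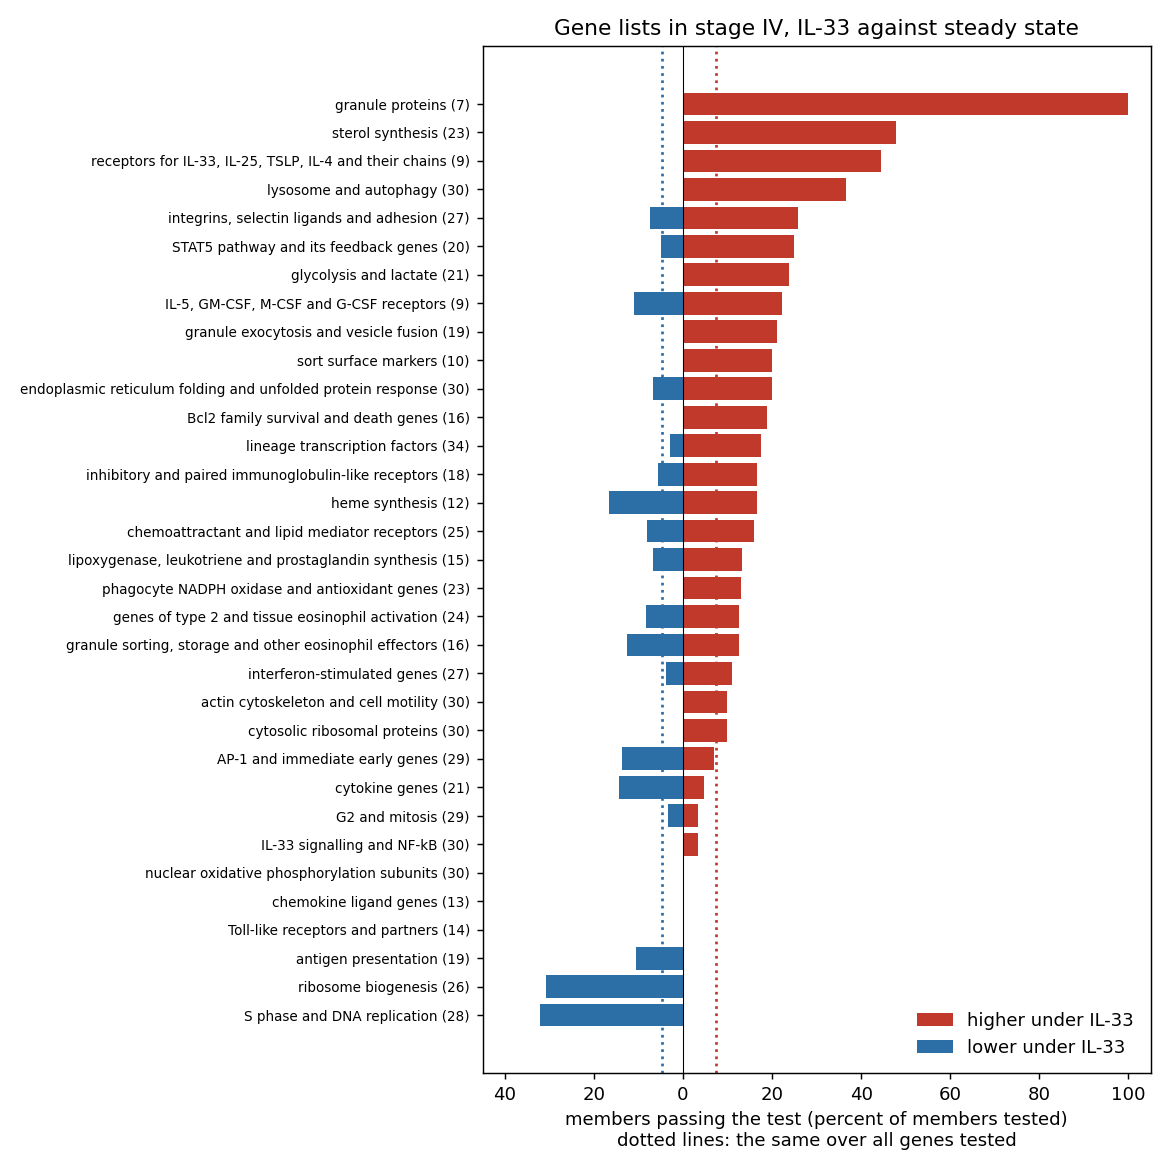
Percent of tested members of each gene list that passed the test in stage IV, with rises under IL-33 to the right, falls to the left, the number tested in parentheses and dotted lines at the percentages over all genes tested (7.48% and 4.68%). Granule proteins, sterol synthesis, receptors and lysosome genes stand to the right, S phase and ribosome biogenesis genes to the left. The lists of other cells, among them basophil and mast cell genes (69.2% higher, 7.69% lower) and stem and progenitor genes (22.2% higher, 44.4% lower), are not drawn.

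Several genes that act in the release of granules were among the rises. Of 19 tested genes of granule exocytosis 4 rose (21.1% against 7.48% of all genes) and 0 fell. The 4 calls held without each library in turn. Stx3, a membrane fusion protein of granules, was at 152.9, 146.3 and 269.2 CPM in steady state libraries and 704.3, 780.9 and 635.5 CPM in IL-33 libraries (log2 fold change 1.9, SE 0.24, adjusted p = 7.85e-06). Rab37 rose by 1.27, Snap23 by 1.1 and Rab3d by 1.11. Of 16 other tested effector genes 2 rose and 2 fell (12.5% each way, against 7.48% and 4.68% of all genes). Serpinb2, an inhibitor of plasminogen activators, was at 317.7, 114.4 and 154.8 CPM against 1062, 1114 and 902.6 CPM and Cst7, a cystatin that inhibits cathepsins, rose by 2.05. Chit1, a chitinase, fell from 8.25, 2.03 and 5.07 CPM to 0, 0.0894 and 0 CPM (adjusted p = 0.00398), and Serpinb10 fell by 2.3 (adjusted p = 0.0398), a call lost without steady state library 2 or 3 and without any 1 of the IL-33 libraries. The Serpinb2 call was lost without steady state library 2 or 3 and without IL-33 library 2.

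Surface genes of adhesion and migration moved in both directions, with 7 rises and 2 falls among 27 tested adhesion genes. These are 25.9% and 7.41%, against 7.48% and 4.68% of all genes. Itga4, the alpha 4 chain of the integrin that binds VCAM-1, was at 321, 565.7 and 467.8 CPM in steady state libraries and 84, 94.1 and 136.7 CPM in IL-33 libraries, a log2 fold change of -2.11 (SE 0.32, adjusted p = 8.93e-05). Its partner Itgb1, whose product CD29 was a sort marker, was at 157 to 243.4 CPM against 213.9 to 264 CPM (adjusted p = 0.678). Vcam1, the ligand, was at 59.5, 28.5 and 9.6 CPM against 281.3, 343.6 and 194.1 CPM and rose by 3.06. Itgb2, the beta 2 integrin chain, rose by 1.12, Cd47, which protects cells from engulfment, by 1.06 and Cd63, a tetraspanin of granule membranes, by 1.03.

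Among chemoattractant receptors 4 of 25 rose (16% against 7.48% of all genes) and 2 fell (8% against 4.68%), with a median log2 fold change of -0.25. Gpr183, the receptor of oxysterols that guides cells within tissues, was at 26.7, 27.3 and 10 CPM against 138.7, 139.6 and 142.4 CPM (log2 fold change 2.71, SE 0.4, adjusted p = 6.32e-05). Ltb4r1, a leukotriene B4 receptor, rose by 1.09. Cxcr4, which holds leukocytes in the marrow, was lower by 0.9 in the test, but the groups overlapped at 132.5 to 258.7 CPM against 80.2 to 137.4 CPM, and the call was lost without steady state library 3 or IL-33 library 2. Of 18 tested inhibitory and paired receptors 3 rose (16.7% against 7.48% of all genes) and 1 fell (5.56% against 4.68%). Besides Cd200r3, given above, Cd200r1 rose by 2.52 and Fcgr2b by 1.14, and Siglece fell by 2.01. Of 10 tested genes of the sort markers 2 rose, Cd200r3 and Cd55 (20% against 7.48% of all genes), and 0 fell. Cd55 went from 46.6 to 87.4 CPM to 114.5 to 150.7 CPM. Since cells were gated on CD200R3 and CD55, the change of these genes cannot be told apart from a shift of the gate.

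Of 21 tested cytokine genes 1 rose and 3 fell, beside 7.48% and 4.68% of all genes tested. Il6 rose from 6.6, 9.7 and 16.9 to 58.7, 60.6 and 61.3 CPM (adjusted p = 4.59e-04), while Il15, Vegfa and Tnfsf13b fell, the last a call lost without IL-33 library 2. Il4, which eosinophils store and secrete, was at 443.9 to 509.8 CPM against 280.2 to 372.3 CPM without passing (adjusted p = 0.161), and Il13 was under 5 CPM throughout. Of 30 genes of IL-33 signalling and NF-kB 1 rose (3.33%, below the share over all genes) and 0 fell. The 1 gene was Nfkb1, higher by 1.01 (adjusted p = 0.00373). Nfkbia was at 929.3, 1266 and 4316 CPM against 802.6, 646.9 and 692.6 CPM (adjusted p = 0.0711). Of 29 tested immediate early genes 2 rose (6.9% against 7.48% of all genes) and 4 fell (13.8% against 4.68%). The list median was -0.52 on the log2 scale. The rises were Zfp36l1, which speeds the decay of messages, by 3.81 and Ier3 by 2.32. Dusp2 (-4.04) and Btg2 (-1.39) were among the falls. Without steady state library 3 the list held 2 rises and 0 falls.

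Of 27 tested interferon-stimulated genes 3 rose (11.1%) and 1 fell (3.7%), shares near those over all genes (7.48% and 4.68%). Ifitm1, a membrane protein that blocks viral entry, had 22, 20.5 and 34.4 CPM in steady state and 1982, 2513 and 2029 CPM under IL-33, 84.9-fold higher (log2 fold change 6.41, SE 0.45, adjusted p = 1.87e-09). Ifitm2 rose by 2.31, from 98.4, 79.1 and 181.6 to 497.3, 730.4 and 547.6 CPM, while Ifitm3 was at a mean of 217.2 CPM in steady state and 216.6 CPM under IL-33. The other calls were Oas1a, whose call was lost under most settings, and Xaf1, which fell by 1.99. Of 19 tested genes of antigen presentation 0 rose and 2 fell (10.5% against 4.68% of all genes). These were H2-K1 and Psmb10, genes of class I antigen presentation, which fell by 0.94 and 0.99. Retnla, a marker of type 2 activation, rose by 1.87. The Retnla call was lost without steady state library 1 or 3 and without IL-33 library 2 or 3. Of 24 tested genes of type 2 and tissue eosinophil activation, 3 rose (12.5% against 7.48% of all genes) and 2 fell (8.33% against 4.68%). Those that fell were Thbs1 and Tgm2, and the list median was -0.38 on the log2 scale.

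Markers of other cells were measured beside these results. Summed over 18 neutrophil genes the level was 12261 to 30119 CPM in steady state and 9804 to 14560 CPM under IL-33. Ngp, S100a9 and Fcnb fell (16.7% against 4.68% of all genes) while Anxa1 rose (5.56% against 7.48%). None of the 3 falls held without IL-33 library 2 or 3, and the Anxa1 value moved to 0.81 without steady state library 2 and that of S100a9 to -3.71 without IL-33 library 1. The number of neutrophil genes that fell was 10 with the replicate block, 12 with limma-voom, 7 with no filter and 11 without IL-33 library 1. Of 17 tested monocyte and macrophage genes 2 rose (Ly6c2 and Vcam1) and 2 fell (C1qa and Lyz2), with sums of 2319 to 4419 and 3973 to 4433 CPM. That is 11.8% each way, against 7.48% and 4.68% of all genes. Ly6c2 was at 420.9, 292.1 and 444.1 CPM against 2351, 2450 and 2110.2 CPM (log2 fold change 2.58, SE 0.21, adjusted p = 2.71e-08). It has a near-identical neighbour, so its level is uncertain.

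Erythroid genes summed to 83.3 to 140 CPM in steady state and 4.29 to 24.9 CPM under IL-33, dendritic cell genes to 223.2 to 299 and 112.2 to 129.4 CPM, and B cell genes to 25.2 to 141.3 and 70.9 to 137.4 CPM. T and NK cell genes summed to 38.3 to 55.2 and 170.9 to 250 CPM, of which Nkg7, a protein of cytotoxic granules, made up 27.2 to 48.4 and 157.3 to 239.6 CPM, while Cd3e, Cd8a, Thy1, Gzma and Gata3 had no counts in any of the 6 libraries. Primary granule genes of early neutrophil precursors such as Mpo and Elane summed to 491 to 1014 and 132.9 to 783.5 CPM. Of 9 tested stem cell and progenitor genes 4 fell (44.4% against 4.68% of all genes), among them Cd34 (by 2.03) and Meis1 (by 1.39). Gata2 and Myb rose (22.2% against 7.48%). The list, which includes Gata2, summed to 129.9 to 172.8 CPM in steady state and 488.2 to 771.8 CPM under IL-33. Of the megakaryocyte genes Itga2b rose while Pf4, which defines platelets, was at 2.96 CPM or less. The part of these cells in the results above was not tested.

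Tested against its mean over stages I to III, the IL-33 effect in stage IV differed for 1370 genes (10.8%), of which 639 lay above that mean (5.01%) and 731 below (5.74%). On library totals the split was 505 above and 952 below, and without IL-33 library 2 the count was 877. Same-numbered libraries of a condition may come from the same mice at every stage, as the labels do not say, and with condition and number as a block the count was 1937. Of the 1550 genes called in stage IV, 606 also had a difference in the same direction. In stage III, where 4256 genes passed, 656 of the 1550 were called in the same direction and 219 in the opposite one, and 590 were called in no earlier stage.

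Besides the granule genes, 8 of the 13 tested genes of the basophil and mast cell list had an effect in stage IV above that mean. Fcer1a was at 252.7 ± 90.7 CPM in stage I in steady state and 60.1 ± 6.21 CPM under IL-33, and at 17.2 ± 9.55 and 190.2 ± 46.1 CPM in stage IV (SD, n = 3 each), so the difference was 4.45 (SE 0.47, adjusted p = 3.11e-06). Gpr183 turned in the same way, from 167.1 ± 82.7 against 39.6 ± 12.3 CPM in stage I to 21.3 ± 9.81 against 140.2 ± 1.95 CPM in stage IV. Cdh1, the adhesion protein E-cadherin, had steady state means of 53.1 ± 11.2 CPM in stage I and 0.17 ± 0.217 CPM at stage IV, and was at 6.44 ± 2.22 and 58.2 ± 6.6 CPM under IL-33. Ecm1, an extracellular matrix protein, was at 87.5 ± 29.9 CPM in stage IV under IL-33 and at 8.2 CPM or less on average in the other 7 groups.

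Most of the other genes with the largest differences had few counts in stage IV. Qrfpr and Amigo2 had 0 counts in steady state stage IV and 107 and 16 under IL-33. In stage III the mean of Qrfpr was lower under IL-33, at 3.56 ± 1.7 against 30.1 ± 20.2 CPM. Amigo2 was at 0 CPM against 2.17 ± 1.95 CPM there, with steady state library 2 also at 0. In stage I Amigo2 was at 23 to 27.3 CPM in steady state and 2.88 to 3.38 CPM under IL-33. Amigo2 did not pass in stage IV itself (adjusted p = 0.0982). Chil5 fell under IL-33 in stage III from 84.3 ± 6.35 to 1.6 ± 0.508 CPM and was at 7.43 ± 4.32 and 32.2 ± 5.28 CPM in stage IV (adjusted p = 0.113). Ppic, Ly75, Adgrl4, Rhoj and Hoxa9 had means of 5.45 CPM or less in both stage IV groups, with 0 counts under IL-33 for the first 3. The 22 steady state counts of Ppic all lay in library 2, without which nothing was left to compare. Sgip1, an adaptor of endocytosis, was at 46 ± 19.7 CPM in steady state stage IV and at 6.34 CPM or less on average in the other 7 groups.

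**Figure D5:**
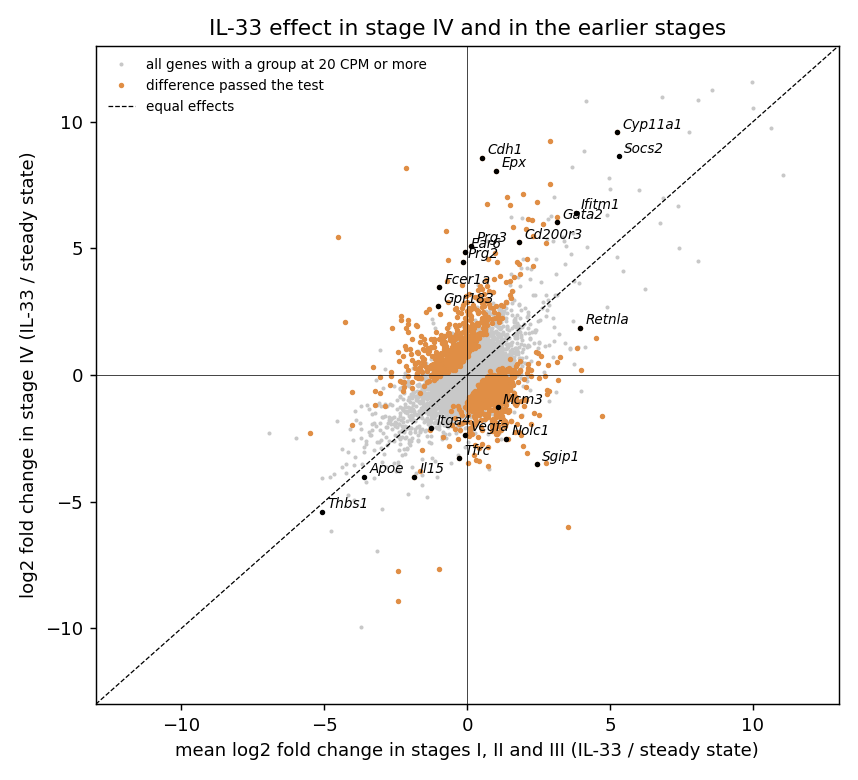
Log2 fold change of IL-33 against steady state in stage IV (vertical axis) against its mean over stages I, II and III (horizontal axis) for genes with at least 1 group at 20 CPM or more, with genes whose difference passed the test in orange, genes named in the text in black and the line of equal effects dashed. Epx, Prg2, Prg3 and Ear6 lie between 4.48 and 8.06 on the vertical axis, far above the dashed line, while Mcm3 and Nolc1 lie to the right of 0 and below it.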

How the data were processed

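RNA of sorted bone marrow eosinophils was made into cDNA with SMART-Seq v4 and into libraries with Nextera XT, per the labels' protocols, a preparation that does not mark strand. The authors deposited whole-number read counts per gene symbol for each of the 24 libraries. STAR 2.6.1a, DESeq2 and the build mm10 are named in the submitters' processing notes, and for the read counter, strandedness and gene models the sources used here give no name, so overlapping and antisense genes cannot be told apart. Each library lists 24982 symbols, of which 24490 (98%) were found in GENCODE M21 on GRCm38, the source of gene coordinates. The 2 entries that name no gene, reads with no feature (11.8% to 30.5% of counted reads in stage IV) and ambiguous reads (1.81% to 2.21%), were left out of library sizes and tests.

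Groups were taken from the sample titles. With edgeR 4.0.16 (R 4.3.3), low genes were removed with filterByExpr, libraries were scaled by TMM, and 1 quasi-likelihood model was fitted to all 24 libraries in 8 groups. The contrasts were IL-33 minus steady state in stage IV, and that effect minus its mean over stages I to III, with Benjamini-Hochberg adjustment over 12743 genes and a threshold of 0.05. The standard error is the log2 fold change divided by the square root of F. Scripts were tested on simulated data. Alternatives were DESeq2 1.42.0, limma-voom (limma 3.58.1), RLE factors, library totals, no filter, stage IV alone, a replicate block, the unassigned share as covariate, and leaving libraries out. Intervals and floors (3 counts over a group) cover counting error only. Each library comes from pooled marrow of 3 mice. The labels do not say whether same-numbered libraries of different stages share a pool, and the fit of all libraries treats them as independent. P-values measure the spread between these libraries, which may be technical.

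Named genes were the 15 largest rises and falls among genes that passed, did not overlap between groups and reached 20 CPM, the 6 largest differences from the earlier stages in each direction, up to 4 members of each of 43 gene lists by adjusted p, and a panel of genes. A few further list members are named to account for counts, chosen after their values were seen. The members and lists were chosen with earlier results of these data known. Some items of the lists are not reported here.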

Additional observations from a re-analysis of the deposited data

Results flagged for a closer look

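The effect of IL-33 in stage IV differed, by a test of the difference itself, from its mean over stages I to III for 1370 genes. The 6 largest differences above 0 were 10.31 for Qrfpr, 10.00 for Amigo2, 8.08 for Cdh1, 7.06 for Epx, 6.44 for Ecm1 and 6.39 for Chil5 on the log2 scale. The 6 largest below 0 were -9.53 for Ppic, -6.66 for Ly75, -6.53 for Adgrl4, -6.34 for Rhoj, -6.23 for Hoxa9 and -5.96 for Sgip1. Epx, Cdh1 and Ecm1 had means of 58.2 CPM or more in stage IV under IL-33, while Qrfpr, Amigo2, Ppic, Ly75, Adgrl4, Rhoj and Hoxa9 had means of 5.45 CPM or less in both stage IV groups, where a fitted log2 value depends on the prior count.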

How the results depend on the processing

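The number of genes that passed in stage IV was 1550 and lay between 1101 and 2168 with DESeq2, RLE factors, library totals, no filter, the stage IV libraries alone and without the 4 steady state libraries numbered 3. DESeq2 called 1043 genes lower in place of 597. Limma-voom with sample weights called 2693 genes (1522 higher, 1171 lower), and 2071 for the difference from the earlier stages (1029 above 0). With the unassigned share added as covariate, 189 genes passed (132 higher, 57 lower), while 1283 passed for the difference. Leaving out 1 stage IV library at a time gave 802 to 1526 calls (567 to 937 higher, 235 to 589 lower) and 877 to 1364 for the difference (421 to 680 above 0). The granule protein share differed by 1.44 percentage points over all counted reads in place of 1.72, and by 1.61 to 1.81 with 1 library left out. The difference in the unassigned share ran from -14.04 to -8.65 percentage points with 1 library left out. Of the 153 genes named by rule that passed, Cxcr4 and Mki67 changed sign with the covariate (0.0839 and 0.033 on the log2 scale), and the log2 fold change of Ppic ran from -6.57 to 0 with 1 library left out, at 0 without steady state library 2. The cause was not tested.

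Deviations of same-numbered libraries of the 2 conditions from their group means correlated weakly (r of 0.05, 0.05 and 0.07). The own number correlated highest in both directions for number 3, but not for numbers 1 and 2. The numbers were not taken as pairs. A fit with the replicate number as a block called 1773 genes (1067 higher, 706 lower), 1511 of them shared with the fit without it, and, with condition and number together as the block, 1937 for the difference. It changed the call of 2 of the 153 genes. With 3 libraries a group, genes of low level rest on few counts, and differences there were often not detectable at this depth.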
